A study of Homo sapiens with 4 samples.

Results

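The genes described here are 10 chemokine and chemokine receptor genes of KP4, an established human pancreatic ductal adenocarcinoma line: the ligands CXCL1, CXCL2, CXCL3, CXCL5, CXCL8, CXCL16, CCL2 and CCL5 and the receptors CXCR4 and ACKR3. They were taken by gene name from a stranded count table of 60651 genes, and each name matched a single row. All 10 were among the 15636 genes with enough reads to be tested. RNA was measured in 4 groups: control KP4 cells given DMSO vehicle, control cells given FOLFIRINOX, cells named E5 given vehicle, and E5 cells given FOLFIRINOX, each for 96 h. FOLFIRINOX, a drug combination used against pancreatic cancer, was here a mixture of 25 nM SN-38, to which irinotecan is converted in the body,, 10 µM of a compound labelled 5-F and 5 µM oxaliplatin. The series title names the E5 cells as resistant to the mixture and the design text mentions 5 cycles of treatment; the sources used here do not give whether the E5 cells shown under vehicle had met the drug before, or whether E5 is a clone or a pool. Every group is 1 GEO sample with 3 numbered columns, treated here as 3 libraries, so the spread between libraries, on which all p-values rest, may be technical.

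Chemokines are small secreted proteins that steer migrating cells through receptors coupled to G proteins. CXCL1, CXCL2, CXCL3, CXCL5 and CXCL8 (interleukin-8) carry the ELR motif, attract neutrophils through CXCR1 and CXCR2, and are classic targets of NF-kappaB. CCL2 attracts monocytes through CCR2, CCL5 attracts T cells and monocytes, and CXCL16 is a membrane-bound ligand of CXCR6 that proteases release. CXCR4 signals in answer to CXCL12, whereas ACKR3 binds the same ligand and mainly removes it from the surroundings. In pancreatic tumours these ligands are known as signals by which cancer cells recruit myeloid cells.

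The 5 ELR members lie in a cluster on the long arm of chromosome 4, with other chemokine genes between them. The stretch before their starts is shown because it holds a match that these 5 genes share. The sequences run 5′ to 3′ from 150 to 51 bases before the RefSeq start (GRCh38.p14), and 6 of the 10 members matched the RefSeq promoter table. Capitals mark matches to 2 kappaB-like motifs, GGAATTTCC and a longer form (GGG, any bases at its positions 4 and 5, then TTTCC), which overlap each other, and to the AP-1 motif TGANTCA, searched on both strands together with TTGCNNAA. The stretches are chr4:73740419-73740518 (plus strand) for CXCL8, chr4:73869243-73869342 (plus strand) for CXCL1, chr4:73998728-73998827 (minus strand) for CXCL5, chr4:74038740-74038839 (minus strand) for CXCL3 and chr4:74099246-74099345 (minus strand) for CXCL2.
CXCL8: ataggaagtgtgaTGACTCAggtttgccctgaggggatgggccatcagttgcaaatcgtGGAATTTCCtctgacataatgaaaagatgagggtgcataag
CXCL1: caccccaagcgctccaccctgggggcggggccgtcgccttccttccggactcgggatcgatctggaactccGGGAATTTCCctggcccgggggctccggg
CXCL2: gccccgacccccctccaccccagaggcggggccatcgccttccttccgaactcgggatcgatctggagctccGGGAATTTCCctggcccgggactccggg
CXCL3: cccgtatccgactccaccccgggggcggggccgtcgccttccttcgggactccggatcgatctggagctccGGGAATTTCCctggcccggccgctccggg
CXCL5: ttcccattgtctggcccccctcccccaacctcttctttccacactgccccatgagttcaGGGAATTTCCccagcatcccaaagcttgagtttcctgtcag
GGAATTTCC was found in the windows of all 5 ELR members and in 0.461% of the table's 35116 windows (250 bases before to 50 after a start). It began 78 bases before the start in CXCL1 and CXCL3, 77 in CXCL2, 90 in CXCL5 and 91 in CXCL8. The longer form was found in CXCL1, CXCL2, CXCL3 and CXCL5 and in 1.91% of all windows. The windows of CXCR4 held none of the 4 motifs. TGANTCA was found in CXCL8, 137 bases before its start, and in 7.71% of all windows, and TTGCNNAA in CXCL2, 188 bases before its start, and in 10.5%. The printed stretches of CXCL1, CXCL2 and CXCL3 are much alike around GGAATTTCC, so their matches are not independent of each other. A match describes letters and is not a binding site.

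Reads assigned to genes numbered 7359034 to 21775030 per library. The markers of ductal epithelium were mixed: KRT18 stood at 171 to 622 CPM in group means, while EPCAM lay between 0.291 and 1.2 CPM and KRT19 between 0.24 and 4.38 CPM. Of 12 leukocyte markers, 2 had no count in any library, including the T cell gene CD3E. PTPRC, which encodes CD45, was the exception at 51.9 CPM in control vehicle libraries against 0.0656 CPM in E5 vehicle libraries. Its fitted log2 changes were -9.63 ± 0.28 for E5 against control cells under vehicle and -2.22 ± 0.12 for the drug in control cells. ITGAM, the only other leukocyte marker tested, had -0.21 ± 0.58 and 1.69 ± 0.4 in the same order. The summed leukocyte list, carried by PTPRC in control cells, ranged from 49.3 to 55.3 CPM in untreated and 11.2 to 15.7 CPM in drug-treated control cells. In E5 cells it ranged from 0.536 to 1.02 and 0.879 to 1.28 CPM. The summed list of 7 fibroblast markers ranged from 5.45 to 5.87 and 3.86 to 3.97 CPM in control cells and from 16.1 to 17.4 and 9.2 to 11.1 CPM in E5 cells, that of 6 endothelial markers from 1.56 to 2.05, 1.64 to 2.57, 7.63 to 8.85 and 4.06 to 4.5 CPM in the same order. The part of these lists in the chemokine values was not tested. Levels below are CPM (counts scaled to library size after TMM, an adjustment for library composition) unless FPKM is named, differences are fitted log2 fold changes ± SE, and a gene is said to have risen or fallen where edgeR's adjusted p was under 0.05. With bulk RNA, fewer expressing cells and less RNA per cell cannot be told apart.

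FOLFIRINOX raised 9 of these 10 genes in control cells and moved them in both directions in E5 cells. In control cells 9 of the 10 members rose and 0 fell, where 65.3% of all tested genes were called, 32.6% higher and 32.7% lower. CXCL16 did not pass, and the libraries of the other 9 did not overlap, as in 67% of all tested genes. In E5 cells 4 members rose (CXCL5, CXCL8, CXCR4, ACKR3), where 25% of all tested genes did, and 3 fell (CXCL16, CCL2, CCL5), where 27.3% did, out of 52.3% called. The E5 libraries did not overlap for 8 members, as in 59.7% of all tested genes. The median log2 fold change of the members was 1.84 in control cells and -0.18 in E5 cells, and that of all tested genes was 0.00 in both. Without the drug, 9 of the 10 members were higher in E5 than in control cells, where 22.1% of tested genes were, and CXCL5 was lower, where 22.2% were, out of 44.3% called. The groups did not overlap for any of the 10, as in 54.8% of all tested genes, and the medians were 1.41 for the members and -0.01 for all genes. Under FOLFIRINOX, 5 members were higher in E5 cells (26.7% of all tested genes) and 4 were lower (27.6%), out of 54.3% called, with medians of 0.28 and -0.01. The groups did not overlap for 9 members, as in 57.2% of all tested genes. These comparisons share libraries, so their counts are not independent. The difference of the drug responses itself, E5 minus control, was called lower for 7 of the 10 members, where 12.4% of all tested genes were, and higher for 0 of them, where 13.3% were called higher and 25.7% were called in either direction.

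**Figure D1:**
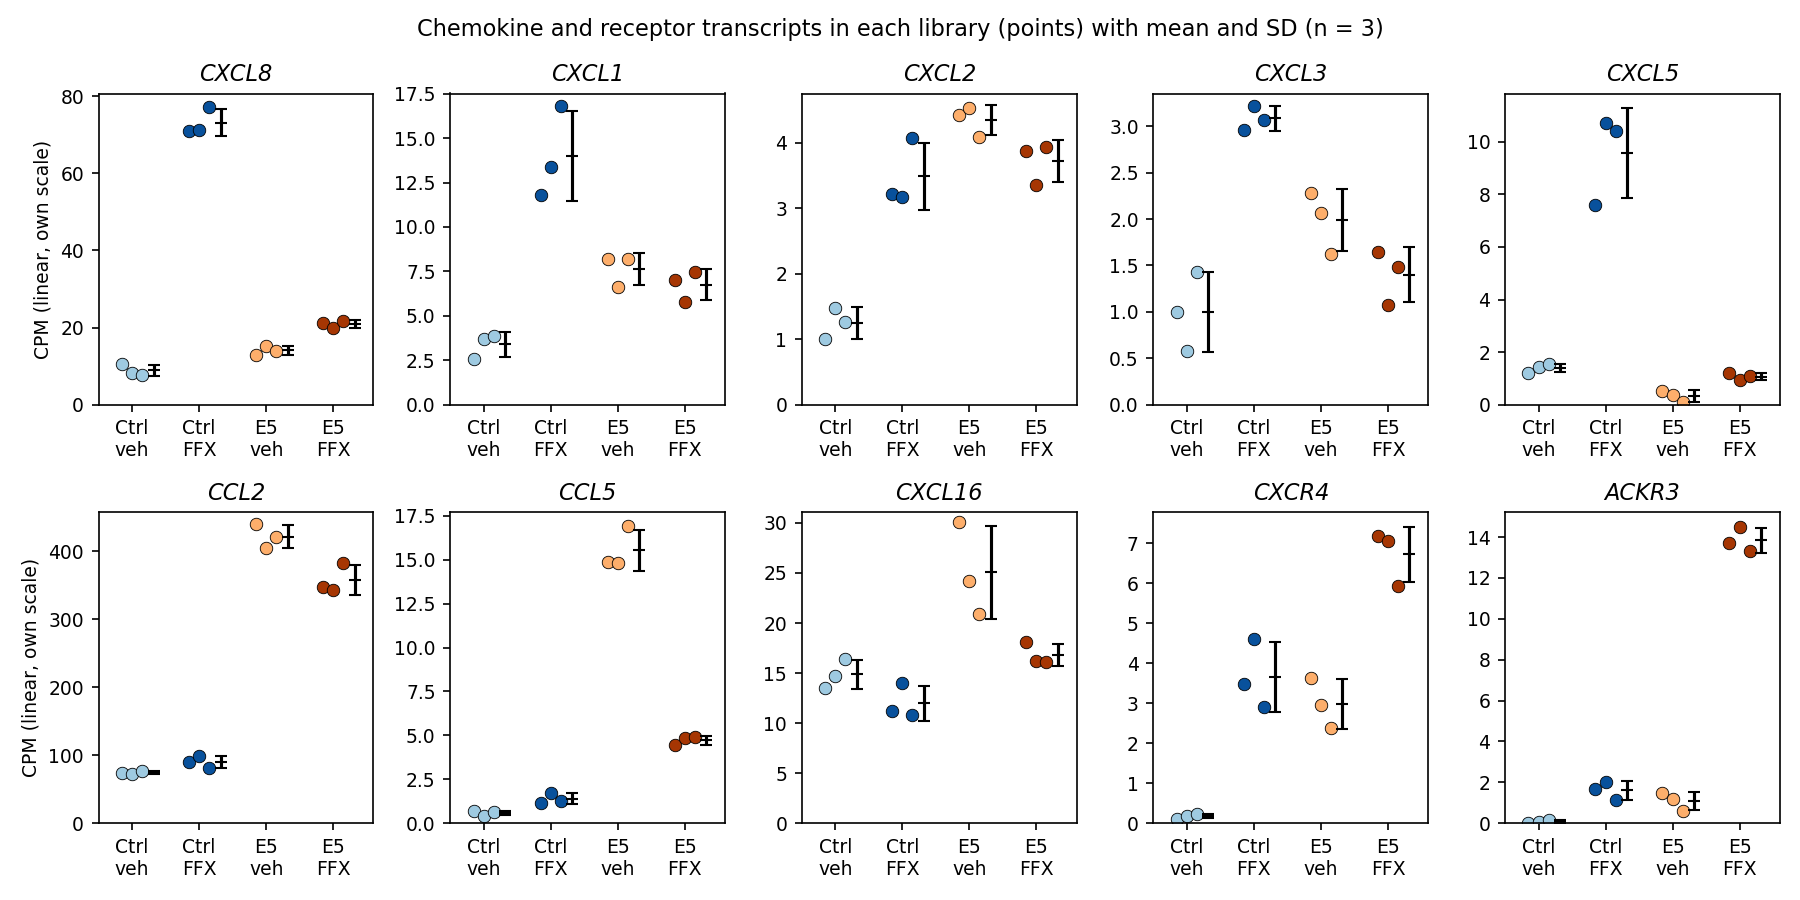
CPM of the 10 members in each library (points; linear axes, each on its own scale), with the mean and SD of n = 3 libraries beside them, for control (Ctrl) and E5 cells under vehicle (veh) and FOLFIRINOX (FFX). CXCL8 reached 70.9 to 77.2 CPM in control FOLFIRINOX libraries and at most 21.7 CPM elsewhere, whereas CCL2 lay at 342 CPM or more in all E5 libraries and at 99 CPM or less in control libraries.

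CXCL8 (ENSG00000169429.11, GRCh38, chromosome 4, 73740541 to 73743716) had the highest fold under FOLFIRINOX among the 8 ligands of control cells. It stood at 10.5, 8.31 and 7.78 CPM in the 3 control vehicle libraries and at 70.9, 71.3 and 77.2 CPM under FOLFIRINOX. In E5 cells it stood at 13, 15.3 and 14 CPM under vehicle and at 21.2, 19.8 and 21.7 CPM under the drug. No pair of groups overlapped, and the order from low to high was control vehicle, E5 vehicle, E5 FOLFIRINOX and control FOLFIRINOX. The rise was 8.48-fold in control cells (log2 3.08 ± 0.097, adjusted p = 2.6e-13) and 1.47-fold in E5 cells (0.56 ± 0.099, adjusted p = 0.00017). The responses differed by -2.53 ± 0.14 (adjusted p = 7.4e-09), and 4 of the 15636 genes had a smaller p for this difference (rank 5). E5 cells thus held more CXCL8 transcript than control cells under vehicle (0.72 ± 0.11) and less under FOLFIRINOX (-1.81 ± 0.086).

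CXCL1 (ENSG00000163739.5, chromosome 4, 73869393 to 73871308), a neutrophil attractant first known as a melanoma growth factor, was also lowest in untreated and highest in drug-treated control cells. Control cells held 2.56, 3.72 and 3.89 CPM under vehicle and 11.8, 13.4 and 16.8 CPM under FOLFIRINOX. E5 cells held 8.17, 6.6 and 8.17 CPM under vehicle and 7.03, 5.77 and 7.47 CPM under the drug. The E5 groups overlapped and lay between the control groups. CXCL1 rose 4.04-fold in control cells (2.01 ± 0.16, adjusted p = 1.4e-08), while in E5 cells the change was -0.15 ± 0.16 (adjusted p = 0.47). The responses differed by -2.16 ± 0.23 (adjusted p = 6.3e-06).

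CXCL2 (ENSG00000081041.9, chromosome 4, 74097040 to 74099196) and CXCL3 (ENSG00000163734.4, chromosome 4, 74036589 to 74038807), close relatives of CXCL1, were expressed at a few CPM. Both rose in control cells and did not pass in E5 cells. CXCL2 ranged from 1.0 to 1.48 CPM in untreated and 3.17 to 4.07 CPM in drug-treated control cells, and from 4.09 to 4.53 and 3.35 to 3.93 CPM in E5 cells. Untreated E5 cells read highest, just clear of drug-treated control cells, and the drug-treated groups overlapped. CXCL2 rose by 1.43 ± 0.19 in control cells (adjusted p = 4.5e-06) and stood at -0.22 ± 0.16 in E5 cells (adjusted p = 0.25), although its E5 libraries did not overlap. CXCL3 ranged from 0.573 to 1.43 CPM in untreated and 2.96 to 3.22 CPM in drug-treated control cells, and from 1.62 to 2.28 and 1.07 to 1.65 CPM in E5 cells. The E5 FOLFIRINOX range touched both vehicle ranges. CXCL3 rose by 1.66 ± 0.26 in control cells (adjusted p = 2.7e-05) and stood at -0.46 ± 0.27 in E5 cells (adjusted p = 0.17). Their responses differed between the lines by -1.65 ± 0.25 for CXCL2 (adjusted p = 0.00015) and by -2.13 ± 0.38 for CXCL3 (adjusted p = 0.00072). The higher CXCL3 level of untreated E5 cells (1.01 ± 0.3, adjusted p = 0.011) was no longer called without control vehicle replicate 2 (0.62) or without E5 vehicle replicate 2 (0.94). CXCL1, CXCL2 and CXCL3 share sequence: of the 50-base stretches of their GENCODE v29 transcripts, 4.81%, 12.5% and 6.01% also occur in a relative, so their single values are uncertain. How many of their reads this touched was not measured.

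CXCL5 (ENSG00000163735.7, chromosome 4, 73995642 to 73998677), the epithelial neutrophil-activating peptide, was lower in E5 than in control cells under both treatments. The control libraries read 1.22, 1.43 and 1.54 CPM under vehicle and 7.59, 10.7 and 10.4 CPM under FOLFIRINOX. The E5 libraries read 0.536, 0.377 and 0.0851 CPM under vehicle (11 counts in all) and 1.19, 0.926 and 1.09 CPM under the drug. No pair of groups overlapped, and both E5 groups lay below untreated control cells. CXCL5 rose 6.86-fold in control cells (2.78 ± 0.19, adjusted p = 2e-09) and by 1.76 ± 0.43 in E5 cells (adjusted p = 0.0023), a ratio of 3.46 with a 95% counting interval of 1.79 to 7.34. It was lower in E5 than in control cells by -2.16 ± 0.4 under vehicle (adjusted p = 0.00031) and by -3.18 ± 0.2 under FOLFIRINOX (adjusted p = 6.6e-10). The difference of its responses, -1.02 ± 0.56, did not pass with counts (adjusted p = 0.2), but passed on the authors' FPKM as log2(FPKM + 1) (-1.36, adjusted p = 0.00011) and on their rlog values (-1.21, adjusted p = 6.3e-05).

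**Figure D2:**
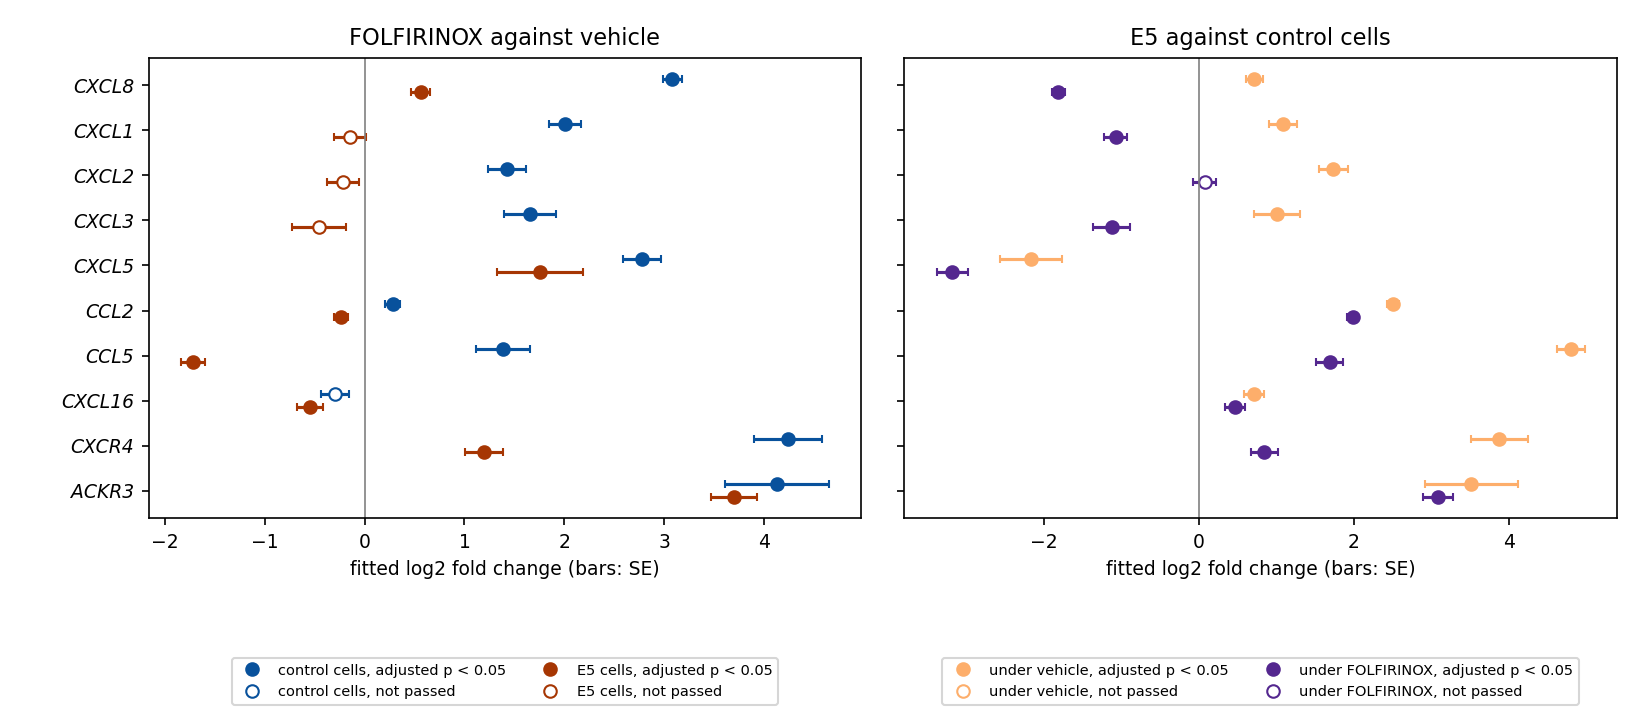
Fitted log2 fold changes of the 10 members (points, bars show the SE; filled, adjusted p under 0.05; open, not passed): left, FOLFIRINOX against vehicle in control and E5 cells; right, E5 against control cells under each treatment. CXCL8 had 3.08 in control and 0.56 in E5 cells, CCL5 had 1.39 and -1.72, and ACKR3 had 4.13 and 3.7.

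Beyond the 5 ELR members, the chromosome 4 interval was read for its neighbours. Within 500 kb on either side of the cluster (GRCh38, chromosome 4, 73240541 to 74599196) lay 17 protein-coding genes, of which 8 were tested: the 5 ELR members, MTHFD2L, a mitochondrial folate enzyme, and the EGF receptor ligands EREG and AREG. All 8 rose in control cells under FOLFIRINOX, where 32.6% of all tested genes did, and 5 of these 8 are the members already counted above. AREG rose by 1.53 ± 0.13, within the range of the ELR genes, EREG by 0.9 ± 0.072 and MTHFD2L by 0.29 ± 0.12 (adjusted p = 0.036). In E5 cells these neighbours rose as well, by 0.78 ± 0.18, 0.6 ± 0.069 and 0.57 ± 0.11, whereas CXCL1, CXCL2 and CXCL3 did not pass. Of all tested genes, 25% rose in E5 cells. The response differed between the lines by -0.74 ± 0.23 for AREG (adjusted p = 0.026) and by -0.3 ± 0.1 for EREG (adjusted p = 0.037). PF4, PPBP, CXCL6 and PF4V1, the other chemokine genes of the cluster, were at or near 0 counts.

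**Figure D3:**
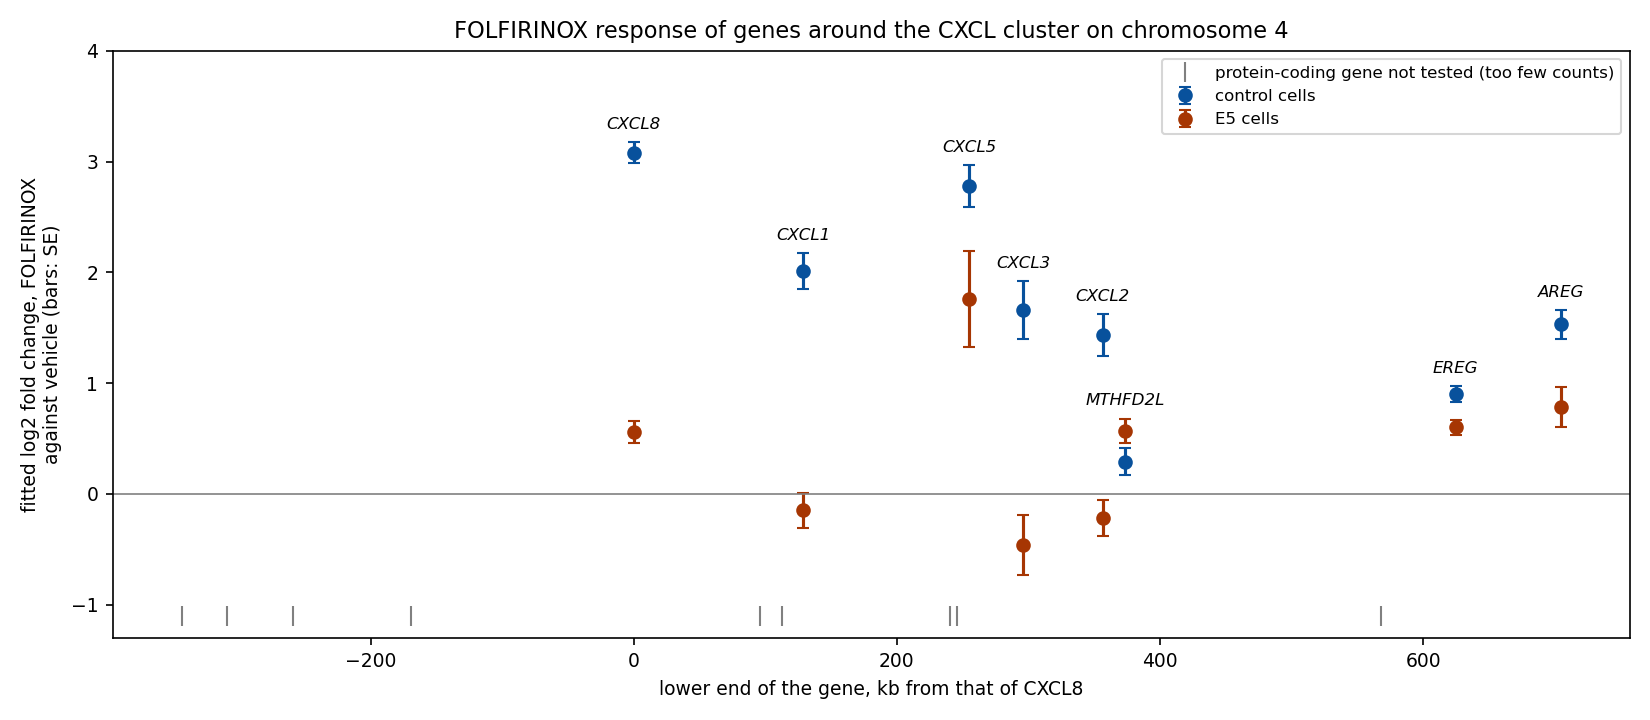
Fitted log2 fold change under FOLFIRINOX (y axis, bars show the SE) of the 8 tested genes of the interval against the distance in kb of its lower end from that of CXCL8 (x axis), for control and E5 cells; grey ticks mark protein-coding genes with too few counts. The 5 CXCL genes lie between 1.43 and 3.08 in control cells, while in E5 cells CXCL1, CXCL2 and CXCL3 lie between -0.46 and -0.15.

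CCL2 (ENSG00000108691.9, chromosome 17, 34255218 to 34257203), the monocyte attractant, had the highest FPKM of the 8 ligands in every group. Its libraries read 74.1, 71.8 and 76.6 CPM in control vehicle and 89.3, 99 and 81.5 CPM in control FOLFIRINOX. In E5 cells they read 439, 405 and 420 CPM under vehicle and 347, 342 and 382 CPM under the drug. No pair of groups overlapped, and every E5 library lay above every control library, at 342 CPM or more against 99 CPM or less. CCL2 was 5.68-fold higher in E5 than in control cells under vehicle (2.51 ± 0.074, adjusted p = 4.1e-14) and 3.97-fold higher under FOLFIRINOX (1.99 ± 0.073, adjusted p = 6.5e-13). The drug moved it little: it rose by 0.28 ± 0.073 in control cells (adjusted p = 0.003) and fell by 0.24 ± 0.069 on the log2 scale in E5 cells (-0.24, adjusted p = 0.0079). The E5 call was lost with library totals alone (-0.17, adjusted p = 0.057) and on log2(FPKM + 1) (-0.17, adjusted p = 0.087). The responses differed by -0.52 ± 0.1 (adjusted p = 0.0014).

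CCL5 (ENSG00000271503.6, chromosome 17, 35871491 to 35880793), which attracts T cells and monocytes and is known as a target of both NF-kappaB and interferon signalling, had opposite responses in the lines. Control libraries read 0.667, 0.43 and 0.629 CPM under vehicle and 1.16, 1.74 and 1.28 CPM under FOLFIRINOX. E5 libraries read 14.9, 14.8 and 16.9 CPM under vehicle and 4.44, 4.84 and 4.89 CPM under the drug. All 4 groups were apart, with both E5 groups above both control groups. CCL5 rose by 1.39 ± 0.27 in control cells (adjusted p = 0.00025) and fell by 1.72 ± 0.12 on the log2 scale in E5 cells, to 0.304 of its level (adjusted p = 9.9e-09). The difference of the responses was -3.11 ± 0.29 (adjusted p = 1.9e-06). E5 cells held 27.8 times the control level under vehicle (4.8 ± 0.18, adjusted p = 1e-12) and 3.23 times under FOLFIRINOX (1.69 ± 0.17, adjusted p = 3.8e-07). Of the 50-base stretches of its transcripts, 13.9% also occur in transcripts of other genes.

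CXCL16 (ENSG00000161921.17, chromosome 17, 4733533 to 4739928), the membrane-bound ligand, was higher in E5 cells and fell there under the drug. It ranged from 13.5 to 16.4 CPM in untreated and 10.8 to 14 CPM in drug-treated control cells, and from 20.9 to 30.1 and 16.1 to 18.1 CPM in E5 cells. E5 vehicle cells stood above the rest, and the other neighbouring groups in this order overlapped. CXCL16 was higher in E5 cells by 0.72 ± 0.13 under vehicle (adjusted p = 0.0002) and by 0.47 ± 0.13 under FOLFIRINOX (adjusted p = 0.0062). It fell in E5 cells (-0.55 ± 0.13, adjusted p = 0.0014) and stood at -0.3 ± 0.14 in control cells (adjusted p = 0.059). On log2(FPKM + 1) the fall in E5 cells (-0.36) and the gap under FOLFIRINOX (0.32) did not pass, and the control change turned to 0.11. The control change lay near the threshold. It passed with no read filter (-0.34, adjusted p = 0.016) and without control FOLFIRINOX replicate 2 (-0.46, adjusted p = 0.009). Leaving out control vehicle replicate 1, E5 vehicle replicate 1 or E5 vehicle replicate 3 singly also let it pass (adjusted p = 0.049, 0.034 and 0.044). ADAM10 and ADAM17, the proteases known to release it, were expressed at 74.4 to 125 CPM and 100 to 171 CPM in group means. ADAM10 fell in control cells under the drug (-0.62 ± 0.11) and stood at 0.05 ± 0.11 in E5 cells, and ADAM17 rose in both (0.32 ± 0.058 and 0.44 ± 0.058).

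Set against each other per transcript length, the ligands made up a pool that differed in size and make-up. The summed FPKM of the 8 member ligands and the 38 other listed ligands found in the tables was 111 ± 2.59 in untreated and 202 ± 12.6 in drug-treated control cells, and 571 ± 22.8 and 505 ± 32.4 in E5 cells (SD, n = 3). CCL2 made up 82.4 ± 0.279% of it in untreated and 60.9 ± 3.2% in drug-treated control cells, and 91.6 ± 0.436% and 92.1 ± 0.591% in E5 cells. CXCL8 made up 4.55 ± 0.511%, 22.8 ± 1.89%, 1.39 ± 0.211% and 2.5 ± 0.145% in the same order. Under the drug CXCL1 made up 6.05 ± 1.33% in control and 1.07 ± 0.0121% in E5 cells. The share of CCL5 was 2.15 ± 0.145% in E5 vehicle and 0.865 ± 0.0799% in E5 FOLFIRINOX libraries. The sums and shares were not tested. FPKM was used without TMM, and on log2(FPKM + 1) the all-gene median change was 0.14 in control cells under the drug. For E5 against control cells under FOLFIRINOX it was -0.1. CCL2 went from 91.3 to 123 FPKM in control cells under the drug, where its fitted rise was 1.21-fold. How much of the change in the sums was scaling was not measured.

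**Figure D4:**
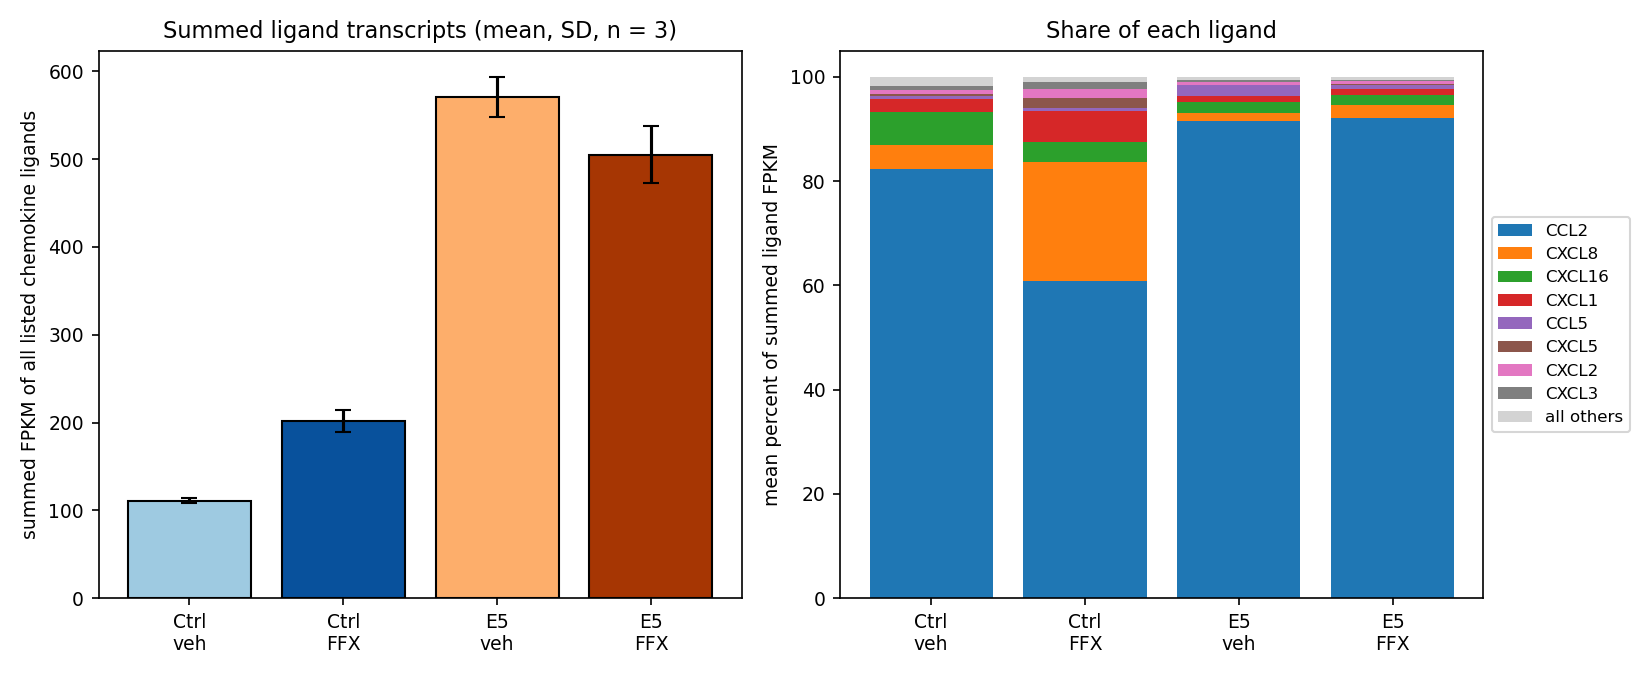
Left, summed FPKM of all listed chemokine ligands (bars show the mean, error bars the SD, n = 3 libraries); right, mean percent of that sum taken by each member ligand, for control (Ctrl) and E5 cells under vehicle (veh) and FOLFIRINOX (FFX). The sum goes from 111 in control vehicle to 571 in E5 vehicle libraries, and CXCL8 takes 22.8% in control FOLFIRINOX libraries.

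The receptors rose in both lines. CXCR4 (ENSG00000121966.7, chromosome 2, 136114349 to 136118149), the signalling receptor of CXCL12, read 0.111, 0.191 and 0.229 CPM in control vehicle libraries, 9 counts in all, and 3.47, 4.61 and 2.9 CPM in control FOLFIRINOX libraries. E5 libraries read 3.62, 2.95 and 2.38 CPM under vehicle and 7.18, 7.05 and 5.92 CPM under FOLFIRINOX. Untreated E5 cells overlapped with drug-treated control cells, untreated control cells lay below all others and drug-treated E5 cells above. CXCR4 rose by 4.24 ± 0.34 in control cells (adjusted p = 1.2e-08), a ratio of 19.8 with a 95% counting interval of 10.2 to 43.9, and by 1.2 ± 0.19 in E5 cells (adjusted p = 4.5e-05). The responses differed by -3.03 ± 0.44 (adjusted p = 0.00011), a call that log2(FPKM + 1) did not give (-0.57, adjusted p = 0.081) while log2(FPKM + 0.1) did (-2.22, adjusted p = 0.0017). Under vehicle E5 cells were higher by 3.88 ± 0.37 (ratio 15.3, counting interval 7.75 to 34.4) and under FOLFIRINOX by 0.85 ± 0.17 (adjusted p = 0.00041).

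ACKR3 (ENSG00000144476.6, chromosome 2, 236567787 to 236582354), the scavenging receptor of CXCL12, was the member with the highest fold under the drug in E5 cells, where it ranked 34 of 15636 genes by fold. Control vehicle libraries read 0, 0.0477 and 0.172 CPM, 4 counts in all, and control FOLFIRINOX libraries 1.67, 2.03 and 1.11 CPM. E5 vehicle libraries read 1.47, 1.19 and 0.596 CPM and E5 FOLFIRINOX libraries 13.7, 14.5 and 13.3 CPM. Drug-treated E5 cells stood far above the rest, and untreated E5 cells overlapped with drug-treated control cells. ACKR3 rose 13-fold in E5 cells (3.7 ± 0.23, adjusted p = 1.7e-09) and by 4.13 ± 0.52 in control cells (adjusted p = 2.5e-06), a ratio of 19.1 with a 95% counting interval of 7.16 to 72. The control value rested on few counts and moved to 5.27 without control vehicle replicate 3, as did the gap between the untreated lines, from 3.52 ± 0.6 to 4.66. Under FOLFIRINOX E5 cells were higher by 3.09 ± 0.19 (8.53-fold, adjusted p = 7.3e-10). The difference of the responses was -0.43 ± 0.64 with counts (adjusted p = 0.67) and -1.57 without control vehicle replicate 3. Its direction turned on scales that compress low values, at 1.37 on log2(FPKM + 1) (adjusted p = 0.0013) and 1.25 on the authors' rlog values (adjusted p = 8.1e-05).

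The partners that these ligands and receptors need were mostly near 0 in KP4 libraries. CXCL12, the ligand of CXCR4 and ACKR3, had 1, 4, 9 and 30 counts over the 3 libraries of untreated and drug-treated control and untreated and drug-treated E5 cells, too few to be tested. Its largest group mean was 0.596 CPM. CXCR1 and CXCR2, the receptors of the ELR ligands, had at most 2 counts in any group, and CCR2, the receptor of CCL2, at most 10. Of 38 other chemokine ligand genes found, 1 was tested: CCL28, a mucosal chemokine. It had 6 and 36 counts in untreated and drug-treated control cells and 1 and 0 counts in the E5 groups. CCL28 had enough reads to be tested only through the drug-treated control libraries (0.694 to 0.892 CPM). Its fitted rise there (2.56 ± 0.59, adjusted p = 0.0015) was favoured by that read filter and is not taken as a result. Of 22 other receptor genes found, 3 were tested. CCR10, the receptor of CCL28 and CCL27, rose from 0.625 ± 0.135 to 2.57 ± 0.787 CPM in control cells (2.2 ± 0.31, adjusted p = 9.8e-06), stood at 0.4 ± 0.37 in E5 cells (adjusted p = 0.38), and its responses differed by -1.8 ± 0.51 (adjusted p = 0.015). CXCR5 passed in control cells (0.8 ± 0.34, adjusted p = 0.048), and CMKLR1, a chemerin receptor, passed for the drug in neither line. CMKLR1 had 5 and 5 counts in the control groups and 29 and 47 in the E5 groups, and had enough reads only through the E5 groups. Its fitted E5 values against control cells were 2.87 ± 0.55 under vehicle (adjusted p = 0.00037) and 3.05 ± 0.5 under FOLFIRINOX (adjusted p = 6.7e-05). These were favoured by the read filter and are not taken as a result.

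Genes that carry chemokine receptor signals inside the cell changed in both directions. Of 14 tested G proteins, receptor kinases, arrestins and related genes, 3 rose and 8 fell in control cells (median -0.28), and 1 rose and 4 fell in E5 cells (median -0.11). Of all tested genes, 32.6% rose and 32.7% fell in control cells and 25% and 27.3% in E5 cells, so the E5 counts lay near or below these shares. DOCK2, an activator of Rac in migrating cells, had the largest fitted change of the list in control cells and rose, from 1 count in the 3 vehicle libraries to 12 under the drug (adjusted p = 0.022), with 42 and 53 counts in the E5 groups. Its drug-treated control libraries ranged from 0.111 to 0.9 CPM around a mean of 0.387 CPM, so this rise leaned on the highest library. ARRB1, an arrestin, fell in both (-1.75 ± 0.077 and -1.34 ± 0.071), as did the inhibitory G protein GNAI2 (-1.29 ± 0.096 and -0.74 ± 0.093). ARRB1 was higher in E5 than in control cells under vehicle (1.6 ± 0.072) and under FOLFIRINOX (2.01 ± 0.077), as was RGS4, which shortens G protein signals (2.07 ± 0.07 and 2.5 ± 0.076).

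Known inducers of the ELR ligands and CCL2, and receptors through which inducers act, were set beside them. Most of the 11 tested genes encode receptors, and the others interleukin-1 and further inducers. Of the 11, 5 rose and 4 fell in control cells (median 0.08), and 3 rose and 5 fell in E5 cells (median -0.17). These counts stand beside 32.6% and 32.7% of all tested genes in control cells and 25% and 27.3% in E5 cells. IL1A and IL1B, which encode interleukin-1, rose in control cells from 0.226 and 0.265 CPM by 3.13 ± 0.41 and 3.01 ± 0.28, and in E5 cells by 1.34 ± 0.19 and 0.89 ± 0.11. Their responses differed by -1.79 ± 0.49 (adjusted p = 0.013) and -2.13 ± 0.32 (adjusted p = 0.00017), the same direction as for CXCL8. IL1B averaged 2.16 CPM in control FOLFIRINOX and 15 CPM in E5 FOLFIRINOX libraries, and CXCL8 averaged 73.1 and 20.9 CPM. The part of these inducers and receptors in the chemokine values was not tested. TNF and IL6 had too few counts to be tested, at most 4 and 17 in any group. TNFSF10, which encodes the death ligand TRAIL, fell in both lines, from 17 to 3 counts in control cells (adjusted p = 0.0048) and by 1.16 ± 0.17 on the log2 scale in E5 cells. Under vehicle 10 of the 11 genes of this list were higher in E5 cells and 0 lower (median 2.21), where 22.1% and 22.2% of all tested genes were. These include TNFSF10, which had enough reads only through the E5 groups (212 and 132 counts). Its higher value in E5 cells was favoured by the read filter and is not taken as a result.

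Regulators of chemokine transcription and mRNA decay were set beside them in the same way. Of 20 tested genes, 14 rose and 3 fell in control cells (median 0.67), and 10 rose and 3 fell in E5 cells (median 0.21). The shares of all tested genes were 32.6% higher and 32.7% lower in control cells and 25% and 27.3% in E5 cells. The difference of the responses was called lower for 11 of the 20 and higher for 1, where 12.4% and 13.3% of all tested genes were. BIRC3, an NF-kappaB target that inhibits cell death, rose by 2.76 ± 0.14 in control and 1.64 ± 0.14 in E5 cells, and RELB, a subunit of the non-canonical NF-kappaB dimer, by 2.52 ± 0.11 and 0.66 ± 0.11. The responses differed by -1.86 ± 0.16 for RELB (adjusted p = 6e-07) and -1.23 ± 0.1 for NFKB2, its partner (adjusted p = 6.3e-07). Under vehicle 15 of the 20 were higher in E5 cells and 1 was lower (median 0.44), beside 22.1% and 22.2% of all tested genes. Under FOLFIRINOX 8 of the 20 were higher and 7 lower in E5 than in control cells, where 26.7% and 27.6% of all tested genes were. RELB was among the lower ones, at 69.6 CPM in control and 34.9 CPM in E5 cells. CEBPB, which encodes a factor known to act with NF-kappaB at the CXCL8 promoter, rose by 1.8 ± 0.12 and 1.15 ± 0.11. It was among the higher ones, at 72.1 and 95 CPM. The part of these regulators in the chemokine values was not tested.

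**Figure D5:**
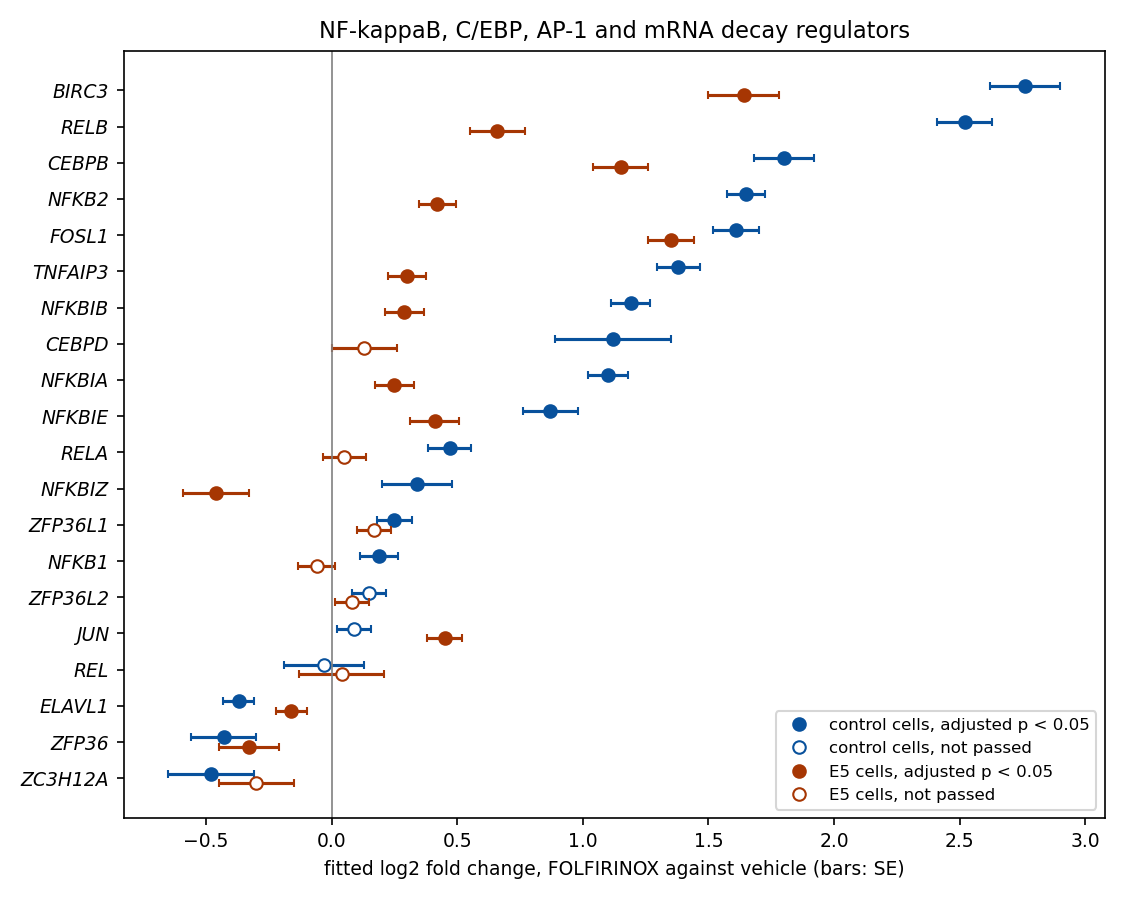
Fitted log2 fold change under FOLFIRINOX (x axis, bars show the SE; filled, adjusted p under 0.05; open, not passed) of the 20 regulators in control and E5 cells, ordered by the control value. RELB lies at 2.52 in control and 0.66 in E5 cells, while FOSL1 lies at 1.61 and 1.35.

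Likeness of pattern over the 12 libraries is given as a description, since 4 groups set most of it and the libraries share their depth and scaling. Of 11825 protein-coding genes, those whose log2 CPM followed CXCL8 most closely were LMO2, BTG1 and TAF12 (Pearson r = 0.984, 0.982 and 0.979). CXCL5 was closest to SEMA7A and GAB2 (0.991 each), CXCL1 to FBXO48 and TRIB1 (0.97 and 0.957), CXCL3 to ORMDL2 (0.932) and CXCL2 to GIMAP2 (0.968). CCL2 was closest to APOL3, HLA-DPB1 and HLA-DRB5 (0.997, 0.996 and 0.996) and CCL5 to SLC46A3, HLA-F and HLA-E (0.988, 0.987 and 0.986). For CXCR4 the closest were DACT1, SPATS2L and HMOX1 (0.993, 0.99 and 0.989), for ACKR3 PLPP4 and TSC22D1 (0.99 and 0.987), and for CXCL16 SDF4 and PIGT (0.981 each). Among the members themselves CCL2 and CCL5 had r = 0.94, CXCR4 and ACKR3 0.91, and CXCL1 with CXCL8 and CXCL3 0.87 and 0.86. CXCL5 had -0.79 with CXCL16 and -0.7 with CCL2.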

How the data were processed

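Per the labels, total RNA of KP4 cells was made into libraries with an mRNA kit. Per the submitters' processing notes, reads were trimmed with Trimmomatic and mapped with STAR 2.5.1b to GRCh38. The authors' deposited counts are unscaled stranded reads per gene, their deposited FPKM values are scaled by length and depth, and their deposited rlog values are regularised log2 counts; no source used here names the programs behind FPKM and rlog. The 4 read classes outside genes (unmapped 1.47 to 1.7%, multimapping 10.79 to 12.84%, without a feature 6.63 to 8.52%, ambiguous 2.86 to 3.2%) stayed out of library sizes, and no sample column was left out (0 columns unused).

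Counts were tested in R 4.3.3 with edgeR 4.0.16 (quasi-likelihood F test, TMM, filterByExpr, group means, 12 libraries), with Benjamini-Hochberg adjustment over 15636 genes at 0.05. SEs were derived from the fold change and its F value. The biological coefficient of variation was 7.37%, and pairs of libraries within a group spread by 1.47 to 14.1 times the counting variance, so none was counted as a duplicate. Tested on simulated counts for the control drug comparison over 15636 genes, the fit recovered 80% of 100 genes changed by a factor of 2 and called 10 unchanged genes. Alternatives were DESeq2 1.42.0, limma 3.58.1 on log2(FPKM + 1), log2(FPKM + 0.1) and rlog, library totals alone, no filter, the compared groups alone, a number block and leaving out each library. Counting intervals (95%, exact binomial) cover counting error only.

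The 10 members and the gene lists were chosen with earlier results of these data known, so lists are described by counts and medians without a set test. Members were named in all comparisons, and other chemokine ligands and receptors where tested. From further lists only tested genes among the 3 largest changes of a comparison were named, though not all of these. Untested genes named with their counts were chosen after their values were seen. Neighbours lay within 500 kb of the chromosome 4 members, and likeness used genes of at least 1 CPM. Promoters came from RefSeq, and shared 50-base stretches from GENCODE v29, a release other than that of the files but of the same build.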

Additional observations from a re-analysis of the deposited data

Results flagged for a closer look

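For 7 of the 10 members the FOLFIRINOX response differed between E5 and control cells by edgeR's test of the difference itself (log2, E5 minus control, adjusted over all 15636 genes). Of all tested genes, 25.7% were called for this difference in either direction, and 12.4% were called lower, as these 7 were. The values were -2.53 for CXCL8, -2.16 for CXCL1, -2.13 for CXCL3 and -1.65 for CXCL2, -0.52 for CCL2 and -3.11 for CCL5, and -3.03 for CXCR4. CCL5 and CCL2 rose in control and fell in E5 cells, CXCL8 and CXCR4 rose in both and more in control cells, and CXCL1, CXCL2 and CXCL3 rose in control cells and did not pass in E5 cells. Groups of 3 libraries were not searched for single outlying libraries.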

How the results depend on the processing

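The number of members called stayed within 1.5 times the first value in all 99 alternative fits, as did the number of all genes called. Of the alternative values of single members, 964 kept their direction and their side of the threshold, 10 lost the call, 8 gained it and 8 changed sign. The sign changes touched values that had not passed: CXCL16 in control cells (0.11 on log2(FPKM + 1), 0.12 on log2(FPKM + 0.1)), CXCL2 in E5 against control cells under FOLFIRINOX (-0.06 and -0.08, and 0.0 to 0.24 over the fits without 1 library, the lowest without control FOLFIRINOX replicate 2) and the difference of the ACKR3 responses (1.37, 0.5 and, on rlog, 1.25); the cause was not tested. Library totals alone moved the all-gene median by 0.14 in control cells under the drug, and log2(FPKM + 0.1) by 0.19. Of the calls there, 49.9% were higher with TMM, 60.9% with totals and 66.9% on log2(FPKM + 1). On log2(FPKM + 1) the higher share fell from 49.1 to 35.4% for E5 against control cells under FOLFIRINOX and from 51.8 to 26.5% for the difference of the responses, and rose from 47.8 to 57.8% in E5 cells under the drug. With the replicate block, 9, 7, 10, 9 and 7 members were called in the 5 comparisons, as many as without it. Same-numbered libraries of different groups correlated between -0.3 and 0.22 in their deviations, so the numbers were not taken to pair them. Depth limits CXCR4 and ACKR3 in control vehicle libraries (9 and 4 counts) and CXCL5 in E5 vehicle libraries (11 counts).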

Other observations

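Several chemokine genes with too few counts for the test had most of their reads in E5 libraries. CXCL10, an interferon-induced ligand of CXCR3, had 0 and 6 counts in untreated and drug-treated control cells and 10 and 9 in E5 cells. CXCL11, a ligand of the same receptor, averaged 0.647 CPM in E5 vehicle libraries and 0.161 CPM in E5 FOLFIRINOX libraries. CCL7, a neighbour of CCL2 on chromosome 17, averaged 0.508 and 0.366 CPM in the E5 groups and 0.0668 and 0.0351 CPM in the control groups. CCL20 went the other way, at 0.761 ± 0.185 CPM in control vehicle and 0.333 ± 0.229 CPM in E5 vehicle libraries (SD, n = 3). These genes were chosen after their values were seen and were not tested.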
